A study of Mus musculus with 2 samples.

Results

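Sox genes encode transcription factors that bind DNA through an HMG box, and they are sorted into groups by the likeness of that box. The 10 genes described here, of 32285 genes in the deposited matrices, were chosen by symbol to cover 4 of these groups: Sox1, Sox2 and Sox3 (SoxB1), Sox11 (SoxC), Sox8, Sox9 and Sox10 (SoxE), and Sox7, Sox17 and Sox18 (SoxF). Messenger RNA was counted in single cells of whole mouse embryos at embryonic day 9.5 (E9.5). There was 1 library of wild-type embryos and 1 library of Usb1-null embryos. The null embryos came from intercrosses of heterozygous mice with a germline CRISPR/Cas9 deletion of Usb1, which the study describes as exons 1 and 2 in one place and as the region of exon 2 in another. Usb1 encodes an exonuclease that trims the 3′-end of the U6 small nuclear RNA. The labels call the molecule nuclear RNA, while the protocol describes a suspension of whole cells. The number of embryos behind each library was not given in the sources used here.

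SoxB1 factors keep neural progenitors in an undifferentiated state, and Sox2 is also a core factor of pluripotent cells and of placodes and foregut. SoxC factors, such as Sox11, are widely expressed in the embryo and act in differentiating neurons. SoxE factors act in neural crest and in its glial and pigment lineages (Sox10, with Sox8 beside it), and Sox9 acts in cartilage precursors, the otic vesicle, the gonad and several epithelia. SoxF factors act in endothelial cells of blood and lymph vessels, and Sox17 also specifies definitive endoderm.

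The wild-type library held 15161 cells after filtering, with a median of 1243 unique molecular identifiers (UMIs) per cell, and the Usb1-null library held 13018 cells with a median of 2299.5 UMIs. With 1 library per genotype no test of genotype was possible, so each value is given for both libraries with an interval that covers counting error only. Usb1 itself was counted at 68 and 47 UMIs in the wild-type and Usb1-null libraries (3.13 and 1.41 CPM, where CPM scales the UMIs of a gene to the total of its library). The counted tags come from the 3′-end of transcripts and not from the deleted part, so these values do not check the genotype. Xist, transcribed from the inactive X chromosome of females, had 53276 wild-type and 26 Usb1-null UMIs, while the Y-linked gene Uty had 3 and 11796 UMIs. The libraries thus differ in the sex of their embryos, and a difference by sex cannot be told apart from a difference by genotype.

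The HMG box is what groups the members, and a stretch of its coding sequence shows how. The lines below give the first 60 of 237 coding bases of the box for each member, from GENCODE M21 transcripts (build GRCm38), 5′ to 3′ on the coding strand. Capitals mark bases that differ from Sox2, which is itself printed all in lower case.
Sox2: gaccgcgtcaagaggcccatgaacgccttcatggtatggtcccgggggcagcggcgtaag
Sox1: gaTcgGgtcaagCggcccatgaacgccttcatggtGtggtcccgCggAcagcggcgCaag
Sox3: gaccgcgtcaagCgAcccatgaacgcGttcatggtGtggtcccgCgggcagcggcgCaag
Sox11: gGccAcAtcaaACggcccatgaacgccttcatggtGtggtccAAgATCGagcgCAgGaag
Sox8: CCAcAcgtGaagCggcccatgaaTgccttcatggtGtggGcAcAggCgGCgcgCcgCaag
Sox9: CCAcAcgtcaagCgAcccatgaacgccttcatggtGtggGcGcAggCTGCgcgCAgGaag
Sox10: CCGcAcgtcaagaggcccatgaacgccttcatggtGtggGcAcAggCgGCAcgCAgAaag
Sox7: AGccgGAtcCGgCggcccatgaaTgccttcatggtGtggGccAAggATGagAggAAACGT
Sox17: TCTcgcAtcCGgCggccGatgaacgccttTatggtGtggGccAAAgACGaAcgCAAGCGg
Sox18: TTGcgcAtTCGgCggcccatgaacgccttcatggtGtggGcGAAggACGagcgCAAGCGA
Most bases in the middle are lower case in all groups, with a few capitals, while the capitals at both ends fall into blocks that partly repeat within a group. Within these 60 bases, Sox1 and Sox3 differed from Sox2 at 7 and 6 positions, Sox11 at 15, the SoxE genes at 15 to 17, and the SoxF genes at 22 to 24. Over the whole 237 bases, the 9 pairs of genes in the same group shared 76.8% to 89.5% of bases, and the 36 pairs from different groups shared 64.6% to 75.1%. Since the groups are defined by this box, the gap describes the grouping and is not a result.

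On GRCm38 the printed Sox2 bases lie at chr3:34650536-34650595 (plus strand), those of Sox1 at chr8:12396505-12396564 (plus) and those of Sox3 at chrX:60892948-60893007 (minus). Those of Sox11 lie at chr12:27342211-27342270 (minus). The SoxE stretches lie at chr17:25570175-25570234 (Sox8, minus), chr11:112782891-112782950 (Sox9, plus) and chr15:79163354-79163413 (Sox10, minus). The SoxF stretches lie at chr14:63943882-63943941 (Sox7, plus), chr1:4493152-4493211 (Sox17, minus) and chr2:181671234-181671293 (Sox18, minus). All are coding, and each lies within 1 exon of its gene. The SoxB1 and SoxC genes have 1 exon each, whereas in the SoxE and SoxF genes the box is split over 2 exons. Exons of Sox8 overlap those of an antisense gene, 2810468N07Rik, so its counts are less certain where strand was not used in counting. The Sox1 exon overlaps Gm25239, which is not among the genes of the matrices.

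The cells fell into 18 clusters when no Sox gene was used to build them, and the 15 that had 100 cells or more from both libraries were compared. Of these, 12 carried a name from their marker genes, such as the endothelium-like cluster 7 (12 of 12 endothelial markers raised) and the primitive erythroid-like cluster 9 (9 of 9 markers). The other 3 stayed unnamed because their markers pointed to more than 1 tissue or did not lead the cluster. Cluster 3 was raised in 8 midbrain and isthmus markers and 8 forebrain and eye markers. Cluster 5 was raised in 8 craniofacial mesenchyme markers and 7 neural crest markers, with Cdh19 and Tfap2b in the lead. Cluster 13 was raised in placode markers that included Pax8, Pax2, Eya1 and Dlx5.

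**Figure D1:**
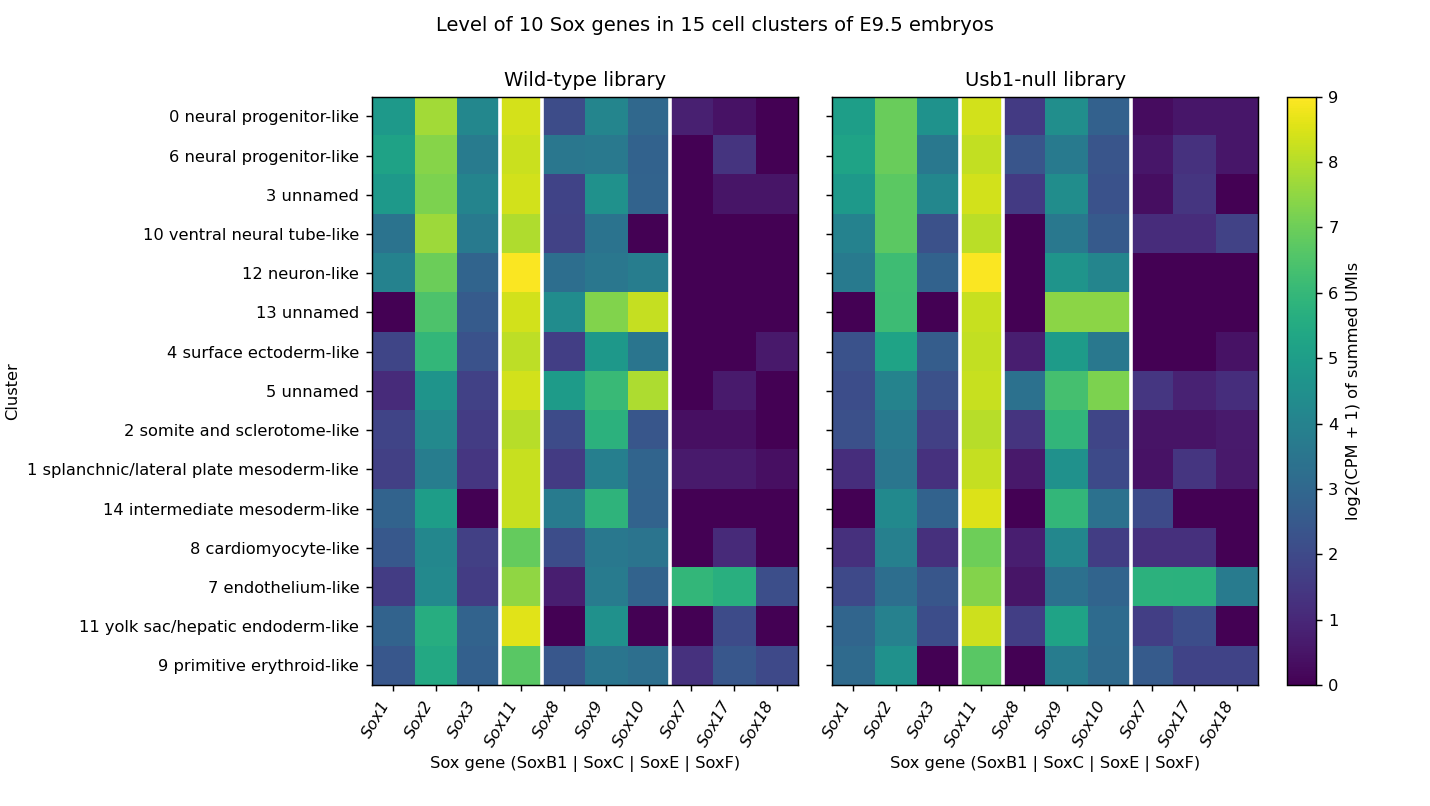
Level of the 10 Sox genes (columns, ordered by group) in 15 clusters (rows) of the wild-type library (left) and the Usb1-null library (right), as log2(CPM + 1) of UMIs summed per cluster. Sox1, Sox2 and Sox3 are bright in the neural rows at the top, Sox9 and Sox10 in the unnamed clusters 5 and 13, Sox8 in cluster 5, Sox7 and Sox17 in the endothelium-like row, and Sox11 in every row.

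Across the 10 members, 3 were at least 1.5-fold lower in the Usb1-null library (Sox2, Sox8 and Sox10) and 1 was at least 1.5-fold higher (Sox18). Among all 16752 genes with at least 50 UMIs, 5.9% were that much lower and 9.2% were that much higher. With 10 members the share that was lower, 30%, rests on 3 genes. The 95% counting interval lay above 1 for 2 members (Sox9 and Sox18) and below 1 for 3 (Sox2, Sox8 and Sox10), and among all genes it lay above 1 for 27.1% and below 1 for 28.5%. Leaving out 1 was thus common among all genes, and 5 of 10 members is near that background. The median log2 ratio, with 1 CPM added to both libraries, was 0.08 for the members and −0.0015 for all genes.

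**Figure D2:**
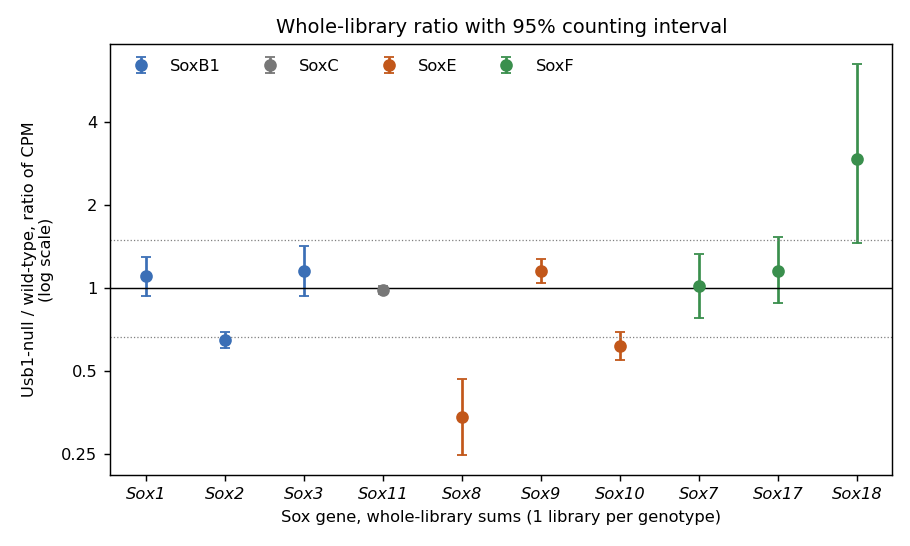
Usb1-null over wild-type ratio of the whole-library level of each Sox gene, with 95% counting intervals on a log axis. Dotted lines mark a 1.5-fold difference in each direction. Sox2, Sox8 and Sox10 lie below the lower dotted line, Sox18 lies above the upper one, and both SoxB1 and SoxE have members on each side of 1.

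Over clusters, 62 ratios of a member could be formed, each with at least 20 UMIs over both libraries and more than 3 in each, of which 16 were at least 1.5-fold lower and 3 at least 1.5-fold higher in Usb1-null. Of 158174 ratios of any gene in a cluster, 10.5% were that much lower and 9.7% that much higher. The 16 lower ratios came from Sox2 (9), Sox10 (5) and Sox8 (2), and the 3 higher ones from Sox9 (2) and Sox18 (1). Of the 16, 7 (4 of Sox2, 3 of Sox10) were in the erythroid-like cluster or at or below its level in both libraries. That level is used as a cut-off, since red cells should lack these genes. By point value 8 were above it in both libraries, and Sox2 in cluster 11 (47.7 and 14.4 CPM) was above it in wild-type only. For Sox2 in the surface ectoderm-like cluster and Sox8 in cluster 6, the counting intervals overlapped the erythroid-like ones in both libraries. For Sox8 in cluster 5 they overlapped in Usb1-null. The counting interval lay below 1 for 14 of the 62 ratios and above 1 for 2, against 11.8% and 9.93% of all ratios. Ratios of 1 gene in several clusters share its sequence and its libraries and are not independent of each other.

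The SoxB1 genes were found mainly in the neural tube. The 5 clusters led by neural tube, brain or neuron genes (0, 3, 6, 10 and 12) held 36.7% of wild-type and 37.4% of Usb1-null cells. They held 84.4% and 84.3% of Sox1 UMIs, 77.5% and 78.6% of Sox2 UMIs, and 75.0% and 75.7% of Sox3 UMIs. These shares were nearly equal in the 2 libraries, although the level of Sox2 was not.

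Sox2 was lower in the Usb1-null library, in the whole embryo and in all 15 clusters. Whole-library sums were 1662 wild-type and 1657 Usb1-null UMIs, or 76.5 and 49.6 CPM, a ratio of 0.649 (95% counting interval 0.606 to 0.695). Its highest level was in the neural progenitor-like cluster 0, which is led by Scube2, Pax6 and Hes5, with 212 CPM (wild-type) and 123 CPM (Usb1-null) (ratio 0.58, 0.515 to 0.653). Next came the ventral neural tube-like cluster 10 with 206 and 106 CPM and the neural progenitor-like cluster 6 with 164 and 121 CPM. The neighbours in this order overlapped in their 2-library ranges for 13 of 14 steps, but these ranges include the difference between the libraries. In wild-type alone the counting interval of cluster 0 (196 to 230 CPM) lay above that of cluster 6 (142 to 187 CPM). In Usb1-null the intervals of clusters 0 and 6 overlapped (113 to 134 and 107 to 137 CPM). The gap in the order was between cluster 13, with 89.6 and 71.2 CPM, and the surface ectoderm-like cluster 4, with 61.4 and 36.04 CPM.

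A Sox2 ratio could be formed in 14 clusters. All 14 ratios were below 1, from 0.302 to 0.830, and 9 of them were below 1 beyond counting error. Red cells should lack Sox2, and the primitive erythroid-like cluster was at 42.3 and 22.7 CPM (29 and 9 UMIs). This level is used as a cut-off in each library. The intermediate mesoderm-like, cardiomyocyte-like, somite and sclerotome-like, endothelium-like, and splanchnic and lateral plate mesoderm-like clusters and cluster 5 lay below it in both libraries, so their Sox2 is not read as expression. The cut-off is not an even background, since the wild-type erythroid-like interval (28.3 to 60.8 CPM) lay wholly above those of several clusters. These were the somite and sclerotome-like (13.6 to 22.7), endothelium-like (11.7 to 26.2), cardiomyocyte-like (9.46 to 27.9) and splanchnic and lateral plate mesoderm-like (9.72 to 17.6) clusters. After the erythroid-like level of the same library was subtracted, a calculation added after the data were seen, the ratio in cluster 0 was 0.591.

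Sox1 and Sox3 did not share the lower level of Sox2. Sox1 was at 10.9 CPM (wild-type) and 12.04 CPM (Usb1-null) (237 and 402 UMIs, ratio 1.10, 0.938 to 1.30). Sox3, on the X chromosome, was at 6.63 and 7.64 CPM (144 and 255 UMIs, ratio 1.15, 0.936 to 1.42). Both intervals hold 1, and both lie wholly above the interval of Sox2. In cluster 0, where Sox2 was at 212 and 123 CPM, Sox1 was at 28.1 and 32.0 CPM (ratio 1.14, 0.856 to 1.53) and Sox3 at 17.1 and 23.2 CPM (ratio 1.35, 0.947 to 1.96). Sox1 was highest in cluster 6, at 35.3 and 36.6 CPM, but within counting error of clusters 0 and 3 (27.8 and 28.4 CPM in the latter), and with another seed the highest cluster was made of cluster 3 cells. In the ventral neural tube-like cluster it was at 9.79 and 14.8 CPM from 4 and 12 UMIs, within counting error of the erythroid-like 4.38 and 7.56 CPM (3 UMIs each).

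A finer partition into 36 clusters placed the SoxB1 genes along the neural tube. In the forebrain and eye-like cluster Sox2 was at 148 and 106 CPM, Sox1 at 36.6 and 36.6 CPM and Sox3 at 15.8 and 20.01 CPM. In the midbrain and isthmus-like cluster, led by Cnpy1, Pax5 and En1, Sox2 was at 141 and 95.8 CPM and Sox1 at 19.9 and 25.4 CPM. In a cluster led by posterior Hox genes such as Hoxb6 and Hoxc8, Sox2 was at 190 and 108 CPM, Sox1 at 39.0 and 25.6 CPM and Sox3 at 15.6 and 17.4 CPM. Thus the lower Sox2 level in the Usb1-null library was seen from the forebrain-like to the Hox-led cells, and no Sox1 or Sox3 level followed it in all 3 clusters.

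**Figure D3:**
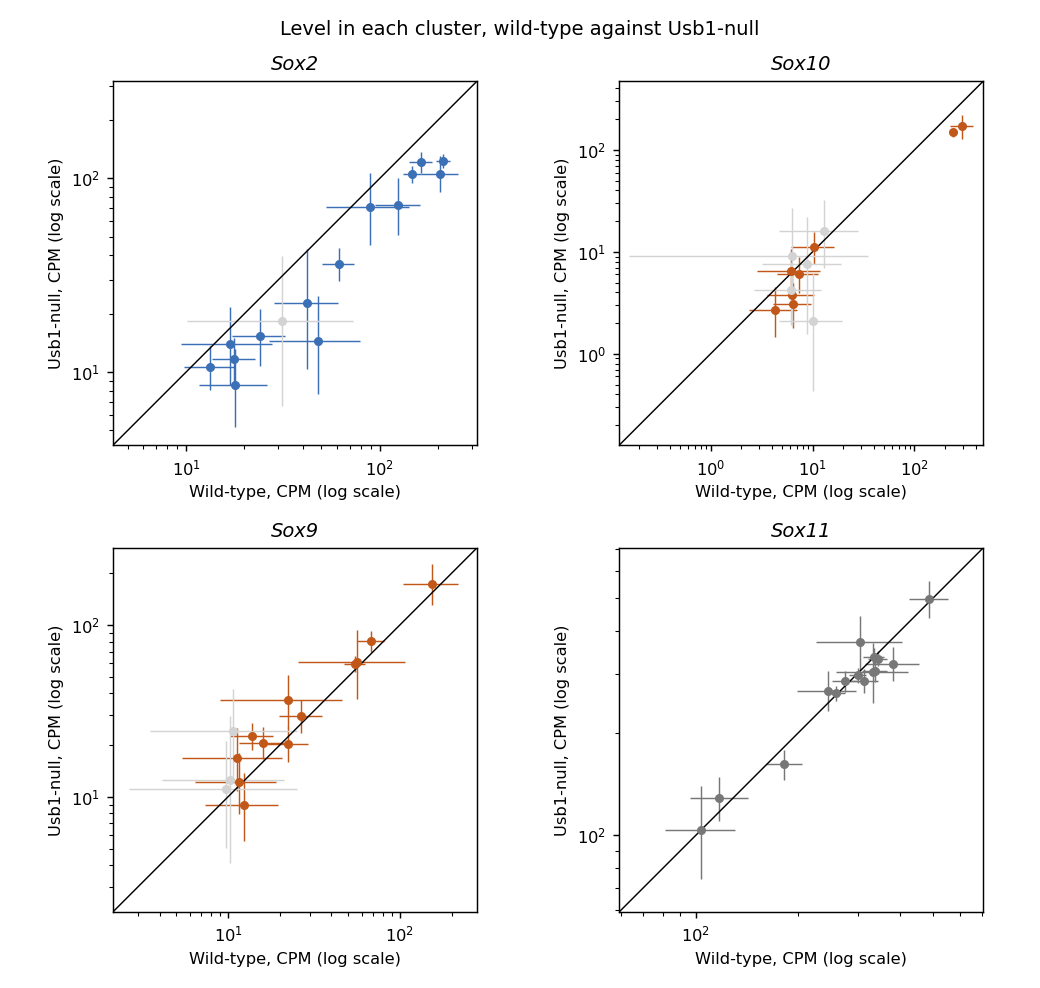
Level of Sox2, Sox10, Sox9 and Sox11 in each cluster, wild-type (x axis) against Usb1-null (y axis), in CPM on log axes with 95% Poisson intervals, and the line of equality. Coloured points have a ratio, grey points have too few UMIs for one, and clusters with no UMI in a library are left out. All Sox2 points lie under the line and the 2 highest Sox10 points do too, while the Sox11 points lie along it and most Sox9 points lie on or above it.

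Sox11, the SoxC member, had UMIs in every compared cluster, at a level that differed little between the libraries. It had 6235 wild-type and 9450 Usb1-null UMIs, or 287 and 283 CPM, and the ratio of 0.987 had the narrowest interval of all members (0.955 to 1.02). The level was highest in the neuron-like cluster 12, led by St18, Elavl3 and Tubb3, with 488 and 498 CPM. It was lowest in the primitive erythroid-like cluster, with 104 and 103 CPM, and the cardiomyocyte-like and endothelium-like clusters came next from below, with 117 and 128 CPM and with 183 and 162 CPM. The cardiomyocyte-like level was within counting error of the erythroid-like one, so it is not read as expression. None of the 15 cluster ratios (0.839 to 1.21) lay outside 1 beyond counting error. In the finer partition the highest level moved to an unnamed cluster led by Gm15892, Nfe2l3 and Msh4, whose cells were shallow (median 717 and 1164 UMIs), with 562 and 540 CPM.

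Of the other SoxC genes, Sox4 went lower where Sox11 did not. Sox4 was at 233 CPM (wild-type) and 167 CPM (Usb1-null) (ratio 0.717, 0.690 to 0.745), with a lower level in all 15 clusters. In the neuron-like cluster it was at 333 and 198 CPM (ratio 0.595, 0.457 to 0.771), beside the Sox11 ratio of 1.02 (0.848 to 1.23) in the same cells. Sox12 was at 25.4 and 32.2 CPM, a ratio of 1.27 (1.14 to 1.41). The 3 SoxC genes therefore had ratios below, near and above 1, with intervals that do not overlap.

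Of the SoxE genes, Sox10 was centred on the unnamed clusters 5 and 13, and 2 of the 3 genes were lower in Usb1-null. Sox10, the neural crest and glial factor, was at 27.7 CPM (wild-type) and 17.1 CPM (Usb1-null) (602 and 572 UMIs, ratio 0.619, 0.551 to 0.695). Clusters 5 and 13 together held 77.7% of its UMIs in wild-type and 72.4% in Usb1-null. In cluster 13 it was at 294 and 170 CPM (ratio 0.58, 0.394 to 0.852), and in cluster 5 at 239 and 149 CPM (ratio 0.623, 0.539 to 0.72). Cells of cluster 5 were 7.33% of wild-type and 7.14% of Usb1-null cells, so the share of the whole cluster was nearly equal. The cluster was raised in both mesenchyme and crest markers. Its sums therefore do not separate a lower Sox10 level per cell from fewer cells with Sox10. Below these clusters the level dropped to 12.9 and 16.2 CPM in the neuron-like cluster and 10.3 and 11.2 CPM in the surface ectoderm-like cluster (ratio 1.09, 0.597 to 2.03), close to the 8.75 and 7.56 CPM of the erythroid-like cells.

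Sox8, a close relative of Sox10 in the crest, had few UMIs and the lowest ratio of the 10 members. It was counted 120 times in wild-type and 63 times in Usb1-null, or at 5.52 and 1.89 CPM (ratio 0.342, 0.248 to 0.467). Cluster 5 held 51 and 22 of these UMIs, at 29.8 and 9.13 CPM (ratio 0.306, 0.177 to 0.514). The neural progenitor-like cluster 6 held 14 and 9 UMIs, at 10.8 and 4.22 CPM (ratio 0.393, 0.15 to 0.974). The erythroid-like background was at 4.38 CPM (3 UMIs) in wild-type and listed at 0 in Usb1-null, and its wild-type interval (0.902 to 12.8) overlaps that of cluster 6 (5.88 to 18.04). Cluster 5 is thus the 1 cluster with a ratio where the wild-type level is above background beyond counting error.

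Sox9 shared its 2 highest clusters with Sox10, but most of its UMIs lay outside them, and its ratio was above 1. It was at 28.3 CPM (wild-type) and 32.7 CPM (Usb1-null) (614 and 1091 UMIs, ratio 1.16, 1.05 to 1.28). The highest level was in the placode-marked cluster 13, at 154 and 173 CPM, followed by cluster 5 at 67.8 and 80.5 CPM. The intermediate mesoderm-like cluster came next, at 56.2 and 60.8 CPM, and overlapped in range with the somite and sclerotome-like cluster at 54.5 and 59.3 CPM. The somite and sclerotome-like cluster held the largest share of Sox9 UMIs, 31.1% and 28.4%. In the splanchnic and lateral plate mesoderm-like cluster Sox9 was at 13.8 and 22.5 CPM (ratio 1.63, 1.16 to 2.32), and this was the 1 cluster of 12 with a ratio where the interval left out 1. The erythroid-like cells were at 10.2 and 12.6 CPM, close to the wild-type level there.

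Within the somite-marked cells, the Sox9 level differed between finer clusters. In the finer partition it was at 82.9 and 92.8 CPM in a somite and sclerotome-like cluster led by Adra1a, Pax1 and Meox2. In the neighbouring unnamed cluster led by Fap, Dmrt2 and Sim1, which shared Meox1, Meox2, Foxc2, Uncx and Tcf15 among its raised markers but lacked Pax1 and Pax9 and had Pax3, it was at 8.59 and 18.1 CPM (8 and 25 UMIs). An unnamed mesenchymal cluster led by Ddr2, Ebf1 and Ebf2 was at 74.3 and 74.5 CPM. Pax1 marks the sclerotome, from which the vertebrae form, and Dmrt2 marks the dermomyotome.

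In clusters 5 and 13 the SoxE genes could be set side by side in the same cells. In cluster 5 the ratios were 0.306 for Sox8 and 0.623 for Sox10, both below 1 beyond counting error, and 1.19 (0.938 to 1.51) for Sox9. In cluster 13 they were 0.58 for Sox10 and 1.12 (0.712 to 1.80) for Sox9, while Sox8 had 4 UMIs in wild-type and was listed at 0 in Usb1-null. The Sox9 and Sox10 intervals do not overlap in cluster 5 and do overlap in cluster 13.

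The SoxF genes were found mainly in the endothelium-like cluster, where Cdh5, Kdr, Pecam1 and Tek were raised. Sox7 was at 4.33 CPM (wild-type) and 4.403 CPM (Usb1-null) (94 and 147 UMIs), and the endothelium-like cluster held 93.6% and 86.4% of these UMIs. Within it Sox7 was at 60.6 and 54.4 CPM (ratio 0.897, 0.678 to 1.19), and the next cluster in the order, the erythroid-like one, was at 1.46 and 5.04 CPM from 1 and 2 UMIs. Sox17 was at 3.96 and 4.58 CPM (86 and 153 UMIs), with 84.9% and 79.7% of UMIs in the endothelium-like cluster, at 50.3 and 52.2 CPM (ratio 1.04, 0.771 to 1.41). Neither gene differed between libraries beyond counting error, there or in the whole embryo. In cluster 11, raised in 9 yolk sac and hepatic endoderm markers and 8 gut endoderm markers, Sox17 had only 1 and 3 UMIs, or 3.18 and 3.32 CPM. Its name is uncertain, since the finer cluster with the same leading genes (Nepn, Rfx6) had 8 gut and 7 yolk sac and hepatic markers and stayed unnamed.

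Sox18, which acts in early endothelium and lymphatic vessels, was the sparsest member and the 1 member with a ratio of at least 1.5. It had 10 wild-type and 45 Usb1-null UMIs, or 0.460 and 1.35 CPM (ratio 2.93, 1.46 to 6.52). The endothelium-like cluster held 5 and 29 of them, at 3.44 and 12.4 CPM (ratio 3.60, 1.38 to 11.9). The value in the cluster rests on 5 wild-type UMIs. The wild-type level there was within counting error of the erythroid-like background, which was at 2.92 CPM (2 UMIs) in wild-type and 2.52 CPM (1 UMI) in Usb1-null, so the size of the fold is uncertain.

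The finer partition split the endothelium-like cells into a larger cluster led by Cldn5, Emcn and Trpc6 and a smaller one led by Adgrg6, Ptprb, Gja5, Vwf, Nfatc1 and Npr3. Gja5 marks arterial endothelium, and Nfatc1 and Npr3 mark endocardium. Sox7 was at 56.6 and 52.9 CPM in the larger and 74.2 and 61.0 CPM in the smaller cluster. Sox17 was at 52.1 and 56.1 CPM in the larger and 44.5 and 37.9 CPM in the smaller. The counting intervals of the larger and smaller clusters overlapped for both genes in both libraries, with 15 to 29 UMIs of each gene per library in the smaller. Sox18 had 0 and 8 UMIs in the smaller cluster and 5 and 20 UMIs in the larger.

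Summed over groups, the values hid these differences. The SoxB1 sum was at 94.0 CPM (wild-type) and 69.3 CPM (Usb1-null) (ratio 0.737, 0.694 to 0.783), and most of its UMIs were Sox2. The SoxE sum was at 61.5 and 51.7 CPM (ratio 0.841, 0.783 to 0.904), with Sox9 and Sox10 on different sides of 1. The SoxF sum was at 8.74 and 10.3 CPM (ratio 1.18, 0.987 to 1.42).

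Members of the same group had more alike cluster profiles than members of different groups, although no Sox gene was used in the clustering. The likeness of a pair was taken as the Pearson r of log2(CPM + 1) over 30 profiles, 15 clusters in each of 2 libraries. The 9 pairs within a group had r from 0.228 to 0.877 (median 0.646), and the 36 pairs between groups had r from −0.576 to 0.402 (median −0.185). The SoxF pairs were highest, with 0.877 for Sox7 and Sox17, 0.799 for Sox7 and Sox18 and 0.768 for Sox17 and Sox18. Outside the endothelium-like cluster, wild-type and Usb1-null UMIs were 6 and 20 for Sox7, 13 and 31 for Sox17, and 5 and 16 for Sox18. The SoxF values thus rest mainly on that cluster. The SoxB1 pairs lay between 0.636 and 0.646. The SoxE pairs were the most spread, with 0.655 for Sox9 and Sox10, 0.453 for Sox8 and Sox10 and 0.228 for Sox8 and Sox9. The profiles share the clusters, the libraries and their depth, so these values are a description.

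**Figure D4:**
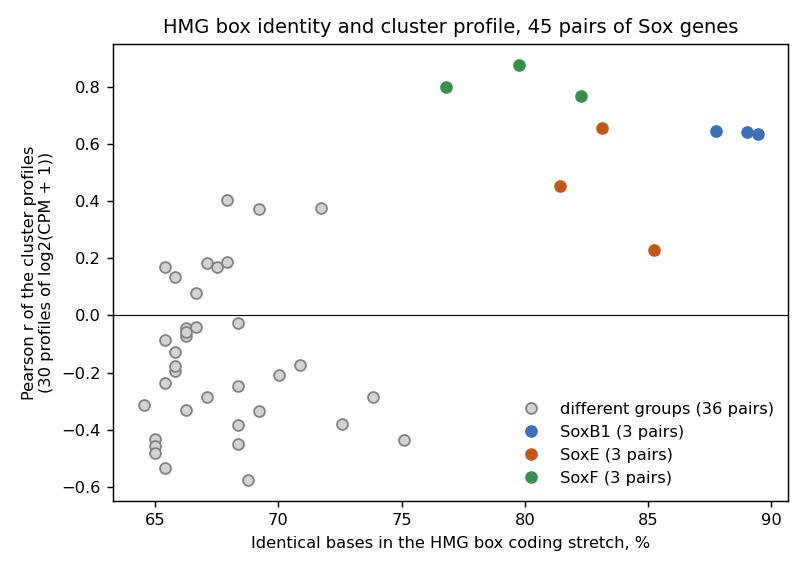
Each point is 1 of 45 pairs of Sox genes, with the share of identical bases over the 237 coding bases of the HMG box (x axis, percent) and the Pearson r of their cluster profiles (y axis, 30 profiles). The 9 coloured pairs of the same group lie to the right of 76% identity with r from 0.228 to 0.877, and the 36 grey pairs lie to the left with r from −0.576 to 0.402. Within the coloured pairs r did not follow identity, since the SoxF pairs had lower identity than the SoxB1 pairs and higher r. The r values of the SoxF pairs rest mainly on the endothelium-like cluster.

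Genes other than Sox genes whose profile was most like that of each member were taken from 13302 genes with at least 200 UMIs. Sox2 was most like Srgap3 (r = 0.913), which turns off Rac signalling downstream of Slit and Robo, the planar polarity cadherin Celsr2 (0.897) and Rtn3 (0.895), and the same 3 genes were found with Spearman's rho. Sox1 was most like the axon growth gene Fez1 (0.890), the non-coding RNA Pantr1 (0.886) and the microRNA host gene Mir124-2hg (0.884). Sox3 was most like Ptprn2 (0.795), the FGF-binding gene Fgfbp3 (0.762) and Lhfpl4 (0.761). For the SoxC member Sox11 they were C530008M17Rik (0.926), the TGF-beta receptor gene Tgfbr1 (0.905) and Ldlrad3 (0.882).

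Among SoxE genes, Sox10 was most like the collagen gene Col9a3 (0.808), the integrin gene Itga4 (0.789) and 2610204G07Rik (0.766). For Sox9, the genes given are Slc25a13 (0.788) and 2610035D17Rik (0.777). The transcript 2610035D17Rik lies on the same chromosome as Sox9, at chr11:113043895-113201838 on GRCm38, 256 kb from it. The most like genes of Sox8 were Trappc4 (0.804), Gtf2h5 (0.737) and Pecr (0.711), and at 183 UMIs in all the Sox8 profile is the least certain of the SoxE profiles.

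By Pearson's r, the genes most like the SoxF members included several known from endothelium, but by Spearman's rho none of the 3 was shared for Sox7 and Sox18 and 1 was for Sox17, and the Sox18 profile rests on 55 UMIs. Sox7 was most like the endothelial phosphatase gene Ptprb (0.929), the basement membrane collagen gene Col15a1 (0.912) and 2610203C22Rik (0.899). Sox17 was most like Abi3 (0.911), Adgrg3 (0.90) and the endothelial adhesion receptor gene Adgrf5 (0.895). Sox18 was most like Cdc42bpa (0.823), Trpc6 (0.819) and the endothelial Notch receptor gene Notch4 (0.817).

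In single cells most members were rarely detected. After each cell was thinned to 500 UMIs, which left out no cell, Sox2 was detected in 3.71% (95% Clopper-Pearson interval 3.42 to 4.03) of cells in wild-type and 2.39% (2.13 to 2.67) in Usb1-null. Without thinning the shares were 9.41% and 10.7%, in the opposite order, since the Usb1-null cells were deeper. In cluster 0 the thinned share was 9.78% (8.63 to 11.03) and 5.57% (4.64 to 6.63), with median depths of 987 and 1856 UMIs. In the erythroid-like cells, which should lack Sox2, it was 1.51% and 2.12%, with median depths of 837 and 1723 UMIs. The intervals of cluster 0 do not overlap, whereas those of the erythroid-like cells do. At 1000 UMIs the erythroid-like shares were 4.72% (2.28 to 8.50) and 0.617% (0.0156 to 3.39), also overlapping but lower in Usb1-null, so their order depends on the depth chosen.

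At 500 UMIs, Sox10 was detected in 1.08% (0.917 to 1.252) of cells in the wild-type library and in 0.799% (0.653 to 0.967) in the Usb1-null library, and in 0.168% and 0% of erythroid-like cells. Sox11 was detected in 13.6% and 13.3% of cells, against 3.03% and 3.17% in the erythroid-like cells. Sox9 was detected in 1.34% and 1.44%, Sox1 in 0.594% and 0.653%, and Sox3 in 0.350% and 0.507%. In the erythroid-like cells the shares were 0.168% and 0% for Sox9, 0.168% and 0.529% for Sox1, and 0.336% and 0% for Sox3. Each of these rests on at most 2 cells. Sox8 was detected in 0.211% (0.144 to 0.298) and 0.0922% (0.0476 to 0.161) of cells. The SoxF genes were each detected in fewer than 0.3% of cells in each library, and in the endothelium-like cluster Sox7 was detected in 2.67% and 2.39% and Sox17 in 2.56% and 3.40%. The shares come from the same UMIs as the levels and are not a separate measure. At 500 UMIs they were lower in Usb1-null for Sox2, Sox8 and Sox10, with intervals that overlapped for Sox8 and Sox10.

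Members of a group were found in the same cells to different extents. Of cells with a Sox1 UMI, 25.6% in wild-type and 27.3% in Usb1-null also had a Sox2 UMI, against 9.16% and 10.2% of cells without one. Of cells with a Sox9 UMI, 9.16% and 9.38% had a Sox10 UMI, against 2.64% and 2.95% of the others. Of cells with a Sox8 UMI, 17.1% and 14.8% had a Sox10 UMI, against 2.77% and 3.36% of the others. These shares mix cell types and depths, so they show mainly that the genes were expressed in the same clusters.

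Within a cluster, in cells thinned to 1000 UMIs, the pairs named here were not detected together more often than counting error allowed. This depth left out 4973 wild-type and 612 Usb1-null cells. In cluster 5, Sox9 was detected in 5.81% (2.69 to 10.7) of wild-type cells with Sox10 and 5.88% (4.25 to 7.90) of those without it, and in Usb1-null in 7.52% (3.66 to 13.4) and 7.32% (5.58 to 9.40). In the endothelium-like cluster, Sox7 and Sox17 were detected together in 1 of 34 wild-type and 1 of 47 Usb1-null cells with Sox17. In cluster 0, 28.6% (14.6 to 46.3) of wild-type cells with Sox1 had Sox2, against 18.97% (16.75 to 21.34) of those without, and in Usb1-null 10.6% (3.55 to 23.1) against 11.1% (9.70 to 12.7). An association of these pairs within clusters was not detectable at this depth.

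The remaining Sox genes were measured beside the members. Of 10 genes in this list, 7 had at least 20 UMIs, 4 of them higher and 3 lower in Usb1-null, with a median log2 ratio of 0.09. The SoxD genes Sox5 and Sox6, partners of Sox9 in cartilage, were at 375 and 331 CPM (ratio 0.884, 0.859 to 0.909) and at 505 and 441 CPM (ratio 0.872, 0.851 to 0.894), and their relative Sox13 was at 54.6 and 61.1 CPM (ratio 1.12, 1.04 to 1.20). Sox21, a SoxB2 gene that acts against SoxB1 in neural progenitors, had 163 and 268 UMIs (ratio 1.07, 0.878 to 1.31). Sox30 had 10 and 22 UMIs, Sox14 had 1 and 0, Sox15 had 1 and 1, and Sry had none in either library, with upper 95% Poisson limits of 0.170 CPM (wild-type) and 0.110 CPM (Usb1-null). No gene of this list reached a 1.5-fold difference among the 7 counted.

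Genes that act with each group, in lists chosen for that purpose, gave medians on both sides of 0. Of all 16752 genes with at least 50 UMIs, 8412 were lower and 8340 (49.8%) higher in Usb1-null. Of the 12 neural progenitor partners of SoxB1, 10 were lower and 2 higher in Usb1-null (median log2 ratio −0.25), none by 1.5-fold, and the POU factor Pou3f2, a partner of Sox2 on neural enhancers, was at 46.6 and 33.8 CPM. Of the 10 neuron genes of SoxC, 9 were lower (median −0.44), 5 of them by at least 1.5-fold, while the microtubule gene Mapt was at 15.7 CPM (wild-type) and 36.8 CPM (Usb1-null) (ratio 2.34). The neuron-like cells were 2.30% of wild-type and 1.54% of Usb1-null cells, and with the wild-type cluster shares set in both libraries the median was −0.33.

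Of the 14 neural crest genes of SoxE, 8 were lower and 6 higher (median −0.05), 2 by at least 1.5-fold in each direction, and the receptor gene Ret was at 8.51 and 13.9 CPM (ratio 1.64). Of the 11 counted cartilage genes of Sox9, 7 were lower and 4 higher (median −0.07), and the collagen gene Col9a2 was at 3.96 and 2.64 CPM (ratio 0.666). Of the 18 endothelial genes of SoxF, 11 were lower and 7 higher (median −0.02), 1 by at least 1.5-fold in each direction. The VEGF receptor gene Flt4, which marks lymphatic and venous endothelium, was at 21.7 and 33.0 CPM (ratio 1.52). Of the 8 endoderm genes of Sox17, 6 were higher and 2 lower (median 0.20, or 0.09 with the wild-type cluster shares set in both libraries, where cluster 11 was 1.43% of wild-type and 2.56% of Usb1-null cells), 2 of the higher ones by at least 1.5-fold, and the forkhead gene Foxa1 was at 2.90 and 6.47 CPM (ratio 2.23). Beside the 5.9% of all genes that were 1.5-fold lower and the 9.2% that were 1.5-fold higher, the neuron list had the largest share of such genes.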

How the data were processed

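Single-cell libraries of whole embryos were prepared with the 10x 3′ v3.1 kit, 1 per genotype. The authors deposited raw UMI counts per gene and cell barcode, made with Cell Ranger (6.1.2 in the matrix header, 2.1.1 in the submitters' processing notes, which name mm10). Cells with 200 to 6000 detected genes and under 30% mitochondrial UMIs, the stated limits of the study, were kept: 15161 of 15162 and 13018 of 13034 barcodes. The wild-type number is above the number of cells the study states. The libraries shared 61 barcodes. Totals of kept cells were 21732106 and 33383886 UMIs.

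Doublets, scored by Scrublet in Scanpy 1.11.5, were kept in the main values (1025 and 560 cells marked). Joint clustering used 2000 variable genes without Sox, mitochondrial, ribosomal protein, Xist or Y-linked genes, 30 principal components, a NumPy version of Harmony, 15 neighbours and Leiden (leidenalg 0.10.2), at the resolution nearest to 19 clusters (18 found) and to 35 (36 found). A cluster was named where at least 3 markers of a list, more than of any other list, were raised 2-fold, and that list had more genes among the 10 leading genes than any other, or as many with at least 2 more raised markers. This rule was set after the clusters were seen.

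UMIs were summed per library and cluster and given as CPM. Ratios carry exact conditional 95% intervals, levels exact Poisson and shares exact Clopper-Pearson intervals, all for counting error only. A ratio within a cluster needed 20 UMIs over both libraries and more than 3 in each. With 1 library per group there was no test. The ratio script was tested on simulated counts. The members and gene lists were chosen with earlier results of these data known. Named were all members, the other Sox genes, the 3 most alike genes per member (1 of those of Sox9 is not reported here), and per list the gene with the largest absolute log2 ratio among those with at least 100 UMIs. HMG boxes were located in GENCODE M21 coding sequences as 79 residues starting 4 before the longest run (9 residues) shared by all members. The printed bases are from that reference, and 99.6% of gene identifiers matched it. Alternatives were all barcodes, at least 1000 genes, doublets removed, other scalings, other clusterings and other thinning.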

Additional observations from a re-analysis of the deposited data

How the results depend on the processing

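The 10 whole-library ratios stayed within their counting intervals under the cell filters, scalings, cluster weighting and omission of erythroid-like cells tried, and the 10 ratios in the highest cluster did under 2 cell filters, 1 scaling, no library correction, another seed and Sox genes among the clustering genes. When Sox genes were allowed, 5 entered the clustering genes and 1 of them was a member, so most members were still left out. For Sox1 the highest cluster without library correction and with another seed was of cluster 3 cells, so those ratios (0.952 and 0.959) are of other cells. The ratios were not recomputed with 36 clusters as an alternative, where Sox18 in the larger endothelium-like cluster was at 2.40 (0.875 to 8.19). The size factor from the median of ratios differed from the total by 0.998-fold. With other additions the log2 ratio of Sox8, −1.18 with 1 CPM, was −1.50 with 0.1 CPM and −0.61 with 5 CPM. With 36 clusters the highest cluster held 13.8% of Sox1 UMIs (19.4% before), 7.65% of Sox2 (33.6%), 10.0% of Sox3 (36.8%), 22.4% of Sox7 (89.2%), 67.8% of Sox17 (81.6%), 14.5% of Sox18 (61.8%) and 5.25% of Sox11 (3.02%). For Sox11 the highest cluster was then of other cells, and for Sox7 and Sox18 it was the smaller endothelium-like one, while the larger held 66.8% and 45.5%. For Sox11 this share was 2.45% with Sox genes among the clustering genes, 2.62% with another seed and 2.49% without doublets, and for Sox2 it was 36.8% without doublets. The Usb1-null minus wild-type difference in the share of cells, in percentage points at 500, 1000 and all UMIs, was −1.32, −2.01 and 1.33 for Sox2, −0.276, −0.554 and 0.535 for Sox10, −0.119, −0.368 and −0.264 for Sox8, 0.0975, 0.588 and 3.53 for Sox9, and 0.036, 0.130 and 0.280 for Sox18. Unthinned it was 1.43 for Sox1, 0.939 for Sox3, 15.96 for Sox11, 0.468 for Sox7 and 0.543 for Sox17, so unthinned shares follow depth. The median of the other Sox genes was 0.09 with at least 20 UMIs and −0.046 with at least 100 UMIs. By Spearman's rho the 3 most alike genes shared 1 gene for Sox3, Sox9, Sox11 and Sox17 and 0 for Sox7, Sox10 and Sox18 with those by Pearson's r. No paired analysis was possible because each genotype has 1 library. Depth limits the values of Sox18 and Sox8 and the co-detection within clusters.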
